A study of Mus musculus with 149 samples.

Results

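Proteases and their inhibitors were followed across mouse lung after airway challenge. The set held 81 genes of the 13494 that the arrays measured under a single gene name. It was chosen by symbol alone, as the genes named Mmp with a number, Timp, Adam with a number, Adamts, Cts with a letter, or Serpin, with Mmp12 left out. Each gene was read by its brightest probe set. The members comprised 11 matrix metalloproteases (Mmp), 4 tissue inhibitors of metalloproteases (Timp), 16 Adam genes, 16 Adamts and Adamts-like genes, 12 cathepsins (Cts) and 22 serpins. RefSeq lists 165 protein-coding mouse genes under the same names, and the other genes of that list, among them Ctsd, Ctsg and Mmp7, were not analysed here.

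The study gave TSLP, an epithelial cytokine of allergic inflammation, to BALB/c mice that were naive or had been sensitized to OVA. Lungs were taken 6 h or 24 h after a challenge with saline, with buffer containing 0.1% MSA, or with 150 ng, 500 ng or 1500 ng of TSLP. Sensitization, challenge and time form 20 groups of 6 to 8 arrays, each with an animal number of its own within its group, from a plan of 8 animals a group. RNA was of whole lung, so a larger number of cells of a type and more RNA per cell cannot be told apart. The defining alveolar type 2 markers were among the brightest genes, with a mean level of 13.62 or more over Sftpc, Sftpb and Abca3 on every array. Of all arrays 6 also carried keratins of squamous epithelium, and a beta-actin measure of RNA quality differed between some groups; both are given with the results they touch.

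The families work against each other in the lung. Matrix metalloproteases cut collagen, elastin and other matrix proteins, and Timps block them. Adam proteins are membrane proteases that shed cytokines, receptors and adhesion molecules, and Adamts enzymes cleave proteoglycans or process procollagen. Cathepsins are mostly lysosomal proteases of macrophages and epithelium, and serpins trap serine proteases of neutrophils, clotting and complement. In allergic airway disease, macrophages, eosinophils and mast cells bring such enzymes into the airway wall.

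Levels are RMA log2 values, so a difference of 1 is a doubling, and a brightness compared between genes also depends on the probe. Cathepsins were the brightest family, with a median of 12.08 over its members' mean levels against 9.77 over all genes. Ctsb, a lysosomal cysteine protease, had the highest mean of any member at 13.28, and Serping1, the C1 inhibitor that restrains complement and the contact system, followed at 13.23. Serpins were the dimmest family, with a median of 7.38, and Serpinb12 had the lowest mean at 5.10. The group means of a member spanned a median of 0.70, against 0.54 over all genes. For 22 of the 81 members they spanned more than 1, which is 27.2%, against 13.2% of all genes. Serpina10 varied the most between groups, with a span of 2.12, before Adamts4 with 2.06 and Timp1 with 2.05.

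The first question was how sensitized lungs differ from naive ones. Naive and OVA lungs were compared within each of the 10 combinations of challenge and time, and these comparisons have no array in common. A difference was counted when limma's adjusted p, by Benjamini and Hochberg over 13494 genes, was under 0.05. The proteases Adam8, Ctsk and Ctss were higher in OVA lungs in 10 of 10 comparisons, as were 2.34% of all genes. In at least 8 comparisons 10 of 81 members rose, against 6.01% of all genes, and in at least 6 comparisons 15 rose, against 10.3%. Falls in at least 6 comparisons were seen for 9 members, against 9.75% of all genes, and in at least 8 for 1 member, against 4.03%; these shares are near or under the background.

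Cathepsin K, a collagen- and elastin-degrading protease known from osteoclasts and activated macrophages, rose by 0.71 to 1.45 in the 10 comparisons. In saline-challenged lungs at 24 h the naive arrays ran from 9.05 over a median of 9.47 to 10.12, and the OVA arrays from 10.29 over 10.94 to 11.26, without overlap. The largest difference was 1.45 (SE 0.19, adjusted p = 5.04e-10), after 150 ng TSLP at 24 h, where all 8 OVA arrays lay above the naive ones. At 6 h after buffer the groups overlapped, with naive arrays from 8.95 to 9.69 and OVA arrays from 9.46 to 10.43, and the difference was 0.71 (SE 0.19, adjusted p = 0.00182).

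Cathepsin S, which trims the invariant chain for antigen presentation in macrophages and dendritic cells, was among the brightest members and moved by less. Its rise ran from 0.19 to 0.42. After 1500 ng TSLP at 6 h the naive arrays lay between 12.61 and 12.99 with a median of 12.84, and the OVA arrays between 13.09 and 13.33 with a median of 13.24. The difference there was 0.42 (SE 0.06, adjusted p = 8.39e-10). The OVA and naive arrays did not overlap in 6 of the 10 comparisons for Ctss and in 5 for Ctsk. Ctsk and Ctss lie on the same strand of chromosome 3, and the starts of their RefSeq promoter windows are 27576 bases apart.

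The promoters of the 3 members that rose in every comparison are shown with that of Timp1, the Timp with the widest range, because all 4 rose in OVA lungs in at least 8 comparisons. They are RefSeq windows of GRCm38.p6, from 250 bases before the gene start up to the start, 5′ to 3′ on the gene's strand. Capitals in Ctss mark the letters ACTTCCTC, the reverse strand of GAGGAAGT, which is a form of the binding motif of PU.1, the myeloid transcription factor. This match crosses the gene start, and the Ctss window is printed 6 bases further.
Ctsk, chr3:95498960-95499209, plus strand: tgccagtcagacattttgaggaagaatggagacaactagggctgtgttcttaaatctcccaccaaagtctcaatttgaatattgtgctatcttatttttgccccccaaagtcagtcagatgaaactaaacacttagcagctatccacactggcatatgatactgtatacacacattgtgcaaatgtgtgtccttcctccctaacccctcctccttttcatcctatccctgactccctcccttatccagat
Ctss, chr3:95526536-95526791, plus strand: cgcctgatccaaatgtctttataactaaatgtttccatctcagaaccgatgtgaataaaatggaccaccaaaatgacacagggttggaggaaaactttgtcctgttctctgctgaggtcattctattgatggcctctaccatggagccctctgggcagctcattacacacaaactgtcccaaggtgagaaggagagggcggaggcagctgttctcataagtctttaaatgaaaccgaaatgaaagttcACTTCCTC
Adam8, chr7:139992563-139992812, minus strand: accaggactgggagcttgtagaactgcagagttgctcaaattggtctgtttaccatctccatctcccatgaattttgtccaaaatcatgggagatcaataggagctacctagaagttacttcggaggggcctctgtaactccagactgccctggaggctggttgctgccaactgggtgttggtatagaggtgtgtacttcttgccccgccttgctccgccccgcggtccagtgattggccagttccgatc
Timp1, chrX:20869916-20870165, plus strand: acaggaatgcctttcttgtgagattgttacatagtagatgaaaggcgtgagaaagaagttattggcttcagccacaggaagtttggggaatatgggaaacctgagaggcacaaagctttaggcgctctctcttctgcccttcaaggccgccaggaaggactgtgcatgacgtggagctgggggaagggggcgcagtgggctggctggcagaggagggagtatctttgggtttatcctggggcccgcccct
GAGGAAGT was searched on both strands in the windows from 250 bases before to 50 after the start, which RefSeq gave for 54 of the 81 members. It occurred for 3 of the 54, Ctss, Ctsc and Mmp8, which is 5.56%, against 3.69% of 27025 genes. A match describes letters and is not a bound site, and the Ctsk, Adam8 and Timp1 windows did not hold these letters.

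Of the other cathepsins, Ctsz and Ctsb rose in 9 of 10 comparisons and Ctsa in 5. Ctsz, a carboxypeptidase of phagocytes, reached 0.53 (SE 0.07, adjusted p = 2.11e-09) at 24 h after saline, where OVA and naive arrays did not overlap. Ctsb reached 0.26 (SE 0.04, adjusted p = 4.98e-08) in the same comparison. The Ctsb call rests on the probe set used: with the mean of its 4 probe sets it passed upward in 2 comparisons. The Ctsa call does too, since with the mean of its 2 probe sets it passed upward in 0. Ctse, an aspartic protease of the endosome, rose in 3, up to 0.93 (SE 0.19, adjusted p = 5.53e-05) at 24 h after saline. Ctsl and Ctsf fell in 4 each and Ctso in 3, and no cathepsin fell in 6 or more comparisons. With the beta-actin measure as a covariate Ctsl fell in 6.

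Adam8, a sheddase of leukocytes and macrophages that is known from allergic airways, rose by 0.76 to 1.53. At 24 h after saline the naive arrays ran from 9.29 over 9.50 to 9.92, and the OVA arrays from 10.30 over 11.30 to 11.68. The difference was 1.53, a 2.89-fold higher level (SE 0.19, adjusted p = 1.69e-10), and no OVA array reached down into the naive range. The smallest difference, 0.76 (SE 0.19, adjusted p = 0.00542), was seen at 24 h after buffer, where the groups overlapped. Adam28, a lymphocyte-associated Adam, rose in 8 comparisons by up to 0.67 (SE 0.14), and Adam15 in 7 by up to 0.34 (SE 0.06). For Adam15 the direction depends on the probe set, since the mean of its probe sets passed upward in 0 comparisons and downward in 1. Adam6b rose in 5, up to 0.80 (SE 0.22, adjusted p = 0.00221), and Adam22, a catalytically inactive member, fell in 5.

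**Figure D1:**
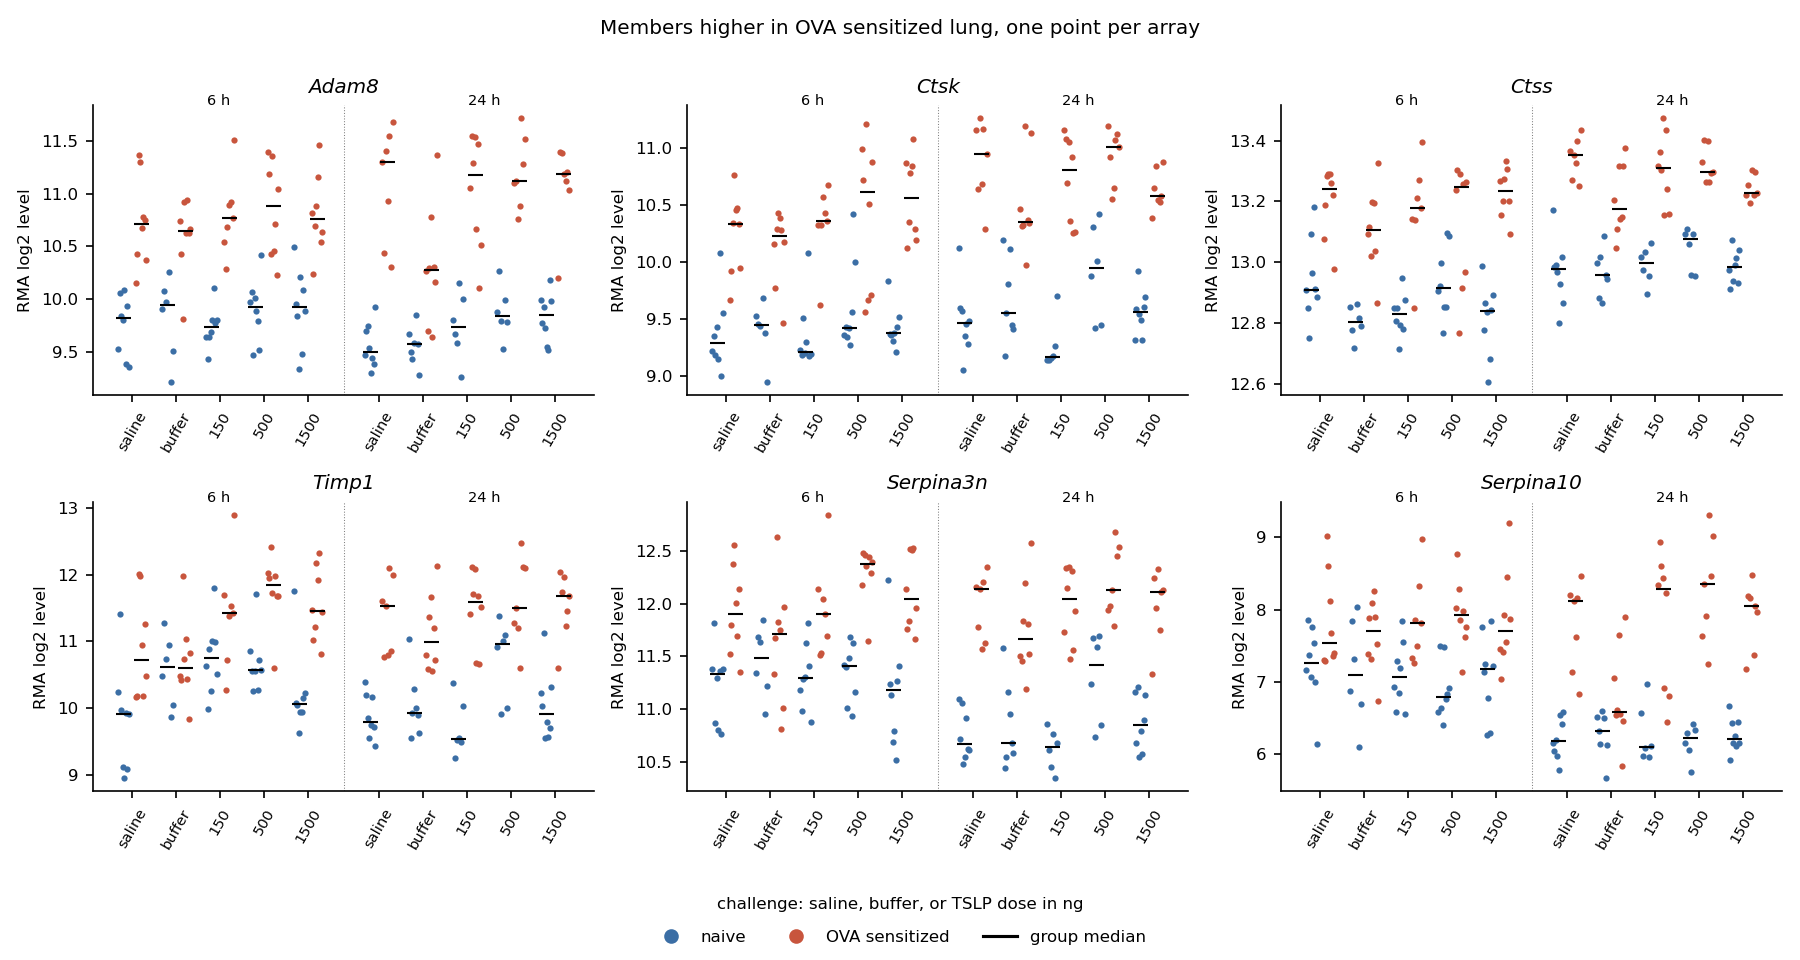
RMA log2 level of 6 members on every array (vertical axis) by challenge (horizontal axis) at 6 h and 24 h, with naive arrays in blue, OVA arrays in red and a black line at each group median. The OVA medians of Adam8, Ctsk and Ctss lie above the naive medians in all 10 pairs, and the Timp1 medians are 10.61 in both after buffer at 6 h and 9.54 and 11.59 after 150 ng TSLP at 24 h.

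Among the inhibitors of metalloproteases, Timp1, which is induced by injury and inflammation, rose in 8 of 10 comparisons. At 24 h after 150 ng TSLP naive arrays ran from 9.26 over 9.54 to 10.37 and OVA arrays from 10.66 over 11.59 to 12.12, a difference of 1.77 (SE 0.31, adjusted p = 2.91e-06) without overlap. At 6 h after buffer there was little to see, with medians of 10.61 in both naive and OVA lungs and a difference of 0.16 (SE 0.31, adjusted p = 0.729). Timp3, the matrix-bound inhibitor, fell in 6 comparisons by up to 0.37 (SE 0.09, adjusted p = 0.000899). Timp2, which also helps to activate pro-Mmp2, had 3 probe sets that did not move alike, as given below. Timp4 passed in none of the 10.

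The metalloproteases went both ways. Mmp14, the membrane-bound collagenase that activates pro-Mmp2, rose in 8 comparisons, up to 0.59 (SE 0.10, adjusted p = 1.06e-06) after 1500 ng TSLP at 24 h, but in 4 with the mean of its probe sets. Mmp19 rose in 6 and was highest at 24 h after saline, where OVA arrays ran from 10.63 over 11.29 to 11.42 and naive arrays from 10.20 over 10.26 to 10.74. This difference of 0.82 (SE 0.13, adjusted p = 3.22e-07) had 1 naive array reaching above the lowest OVA array. Mmp17 rose in 6, up to 0.61 (SE 0.10), and Mmp13, a dim collagenase with a mean of 5.71, rose in 3, up to 1.02 (SE 0.29, adjusted p = 0.00426).

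Mmp9 and Mmp8, the gelatinase and collagenase that neutrophils store in granules, were lower in OVA lungs. Mmp9 fell in 7 of 10 comparisons and Mmp8 in 6. After 1500 ng TSLP at 24 h, Mmp9 ran from 9.75 over 9.91 to 10.48 in naive arrays and from 8.27 over 8.86 to 9.23 in OVA arrays. The fall of 1.21 (SE 0.20, adjusted p = 3.24e-07) was without overlap. Mmp8 ran from 8.41 over 8.65 to 8.99 in the naive and from 7.09 over 7.65 to 8.05 in the OVA arrays of that comparison, and fell by 1.07 (SE 0.24, adjusted p = 0.00014). Neutrophil marker genes moved beside them. Of the 5 measured of 7 listed, Trem1 fell in 8 comparisons, S100a8 and S100a9 in 3, Cxcr2 in 2 and Il1r2 in 0. Their mean level ran from 9.93 to 11.09 over naive arrays and from 9.23 to 11.20 over OVA arrays. The part of neutrophil number in the Mmp8 and Mmp9 difference was not tested.

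**Figure D2:**
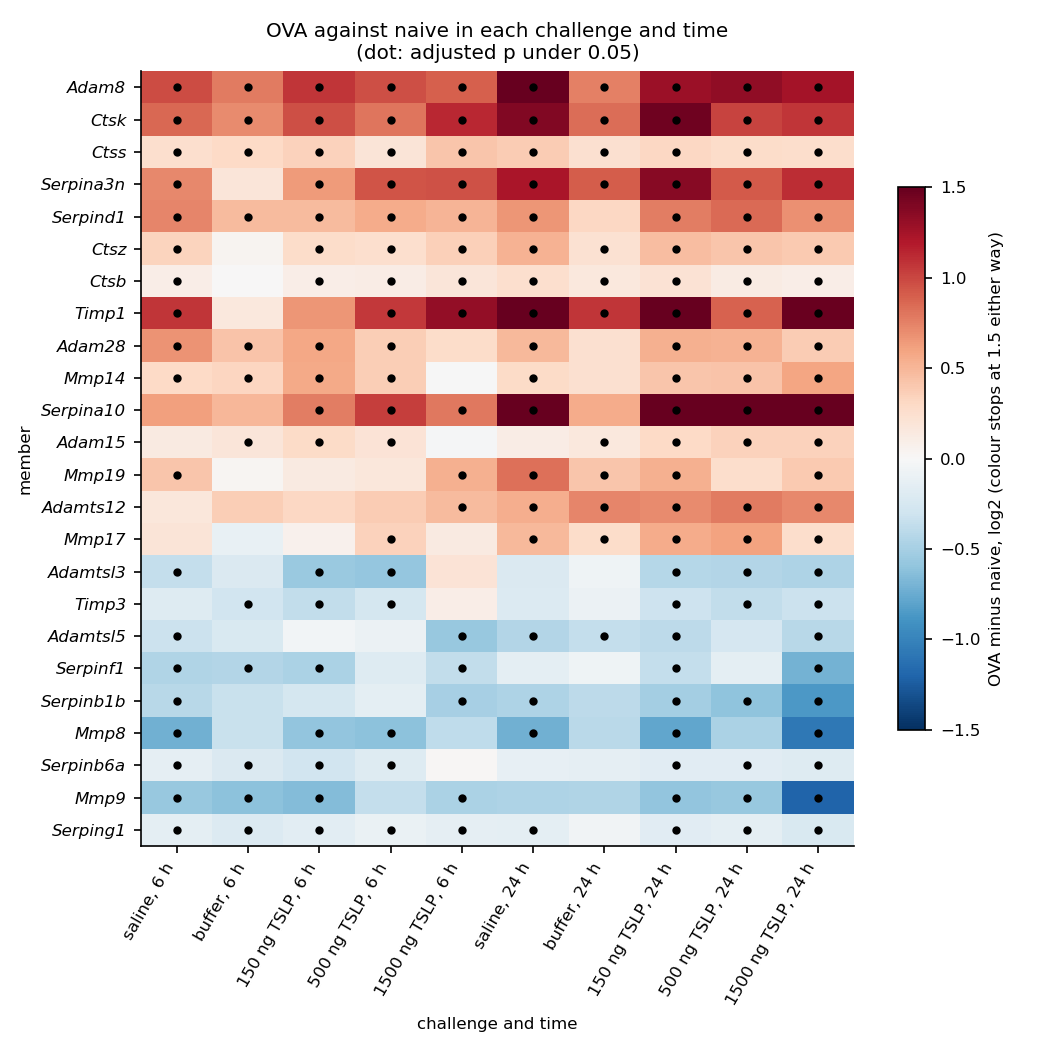
Colour shows the difference between OVA and naive lungs in log2 for the 24 members that passed in at least 6 of the 10 comparisons in one direction (rows), by challenge and time (columns), red for higher in OVA and blue for lower, with a dot where adjusted p was under 0.05. Adam8, Ctsk and Ctss carry a dot in all 10 columns, and the columns of buffer at 6 h and 24 h hold 12 dots each, the fewest.

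Adamts4, the aggrecan-degrading enzyme, rose in OVA lungs in 5 of 5 comparisons at 24 h and in 0 of 5 at 6 h by limma, a difference between the times that was not tested. After 1500 ng TSLP at 24 h it ran from 6.46 over 6.60 to 7.64 in naive arrays and from 8.06 over 8.33 to 9.03 in OVA arrays, a difference of 1.68 (SE 0.35, adjusted p = 4.88e-05). At 6 h the highest array of each group lay between 8.88 and 10.19, and naive and OVA arrays overlapped after each challenge. Adamts12 rose in 6 comparisons, up to 0.78 (SE 0.20), and Adamtsl3 and Adamtsl5, secreted relatives without protease activity, each fell in 6. Adamtsl3 fell by up to 0.58 (SE 0.11, adjusted p = 2.68e-05) after 500 ng TSLP at 6 h, where all 8 OVA arrays lay below the naive ones.

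Serpins went both ways too. Serpina3n, an acute-phase inhibitor of granzyme B and related proteases, rose in 9 comparisons, up to 1.36 (SE 0.20, adjusted p = 2.82e-08) after 150 ng TSLP at 24 h. There the naive arrays ran from 10.35 over 10.64 to 10.86 and the OVA arrays from 11.48 over 12.04 to 12.35. Only the comparison at 6 h after buffer did not pass (0.18, SE 0.20, adjusted p = 0.515). Serpind1, heparin cofactor II, rose in 9, up to 0.85 (SE 0.13, adjusted p = 2.05e-07), with no overlap in 6 comparisons.

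Serpina10, the protein Z-dependent inhibitor of factor Xa, rose in 7 and had the largest difference of any member in these comparisons. After 500 ng TSLP at 24 h its naive arrays ran from 5.75 over 6.23 to 6.41 and its OVA arrays from 7.25 over 8.36 to 9.31. This is a 4.33-fold difference, 2.12 on the log2 scale (SE 0.31, adjusted p = 3.25e-08). At 24 h after buffer the difference was 0.56 (SE 0.29, adjusted p = 0.226), with OVA arrays from 5.84 over 6.58 to 7.91.

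Serping1 fell in 9 of 10 comparisons by small amounts, up to 0.23 (SE 0.04, adjusted p = 1.23e-06) after 1500 ng TSLP at 24 h. Its OVA arrays in that comparison ran from 12.96 over 13.07 to 13.10 and its naive arrays from 13.22 over 13.30 to 13.33. Serpinb6a fell in 7, and Serpinf1 (the anti-angiogenic protein PEDF) and Serpinb1b in 6 each. Serpinf1 fell by up to 0.71 (SE 0.11, adjusted p = 1.97e-07) and Serpinb1b by up to 0.87 (SE 0.15, adjusted p = 1.39e-06), both after 1500 ng TSLP at 24 h. Of the 14 members that passed in none of the comparisons, against 12.8% of all genes, 8 were serpins, among them Serpina1b, Serpinb1a and Serpinc1.

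The remaining 43 members passed in at least 1 and at most 5 comparisons. Adamts20 rose in 4, up to 0.81, Ctsc, which activates the granule serine proteases, in 4, up to 0.36, and Serpina11 in 4, up to 1.12. With the mean of its probe sets Ctsc passed upward in 3 and downward in 1. Adamts1 fell in 4, by up to 0.67, Adamts10 in 5, by up to 0.50, Mmp11 in 4, by up to 0.65, and Ctsl and Ctsf in 4 each. The sheddases Adam10 and Adam17 rose in 3 and 2, and Mmp2, a gelatinase of fibroblasts, in 2. With the mean of their probe sets Adam10 and Adam17 rose in 1 each. Serpinh1, the collagen chaperone Hsp47, rose in 1, and Adam33 and Serpina7 passed once in each direction, as 14.2% of all genes did at least once.

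By comparison, rises among the 81 members outnumbered falls in each of the 10. At 6 h 14 rose and 10 fell after saline, against 10.9% and 12.6% of all genes, and 13 rose and 11 fell after buffer, against 15.7% and 18.0%. After TSLP at 6 h 19 rose and 13 fell at 150 ng (all genes 23.6% and 22.4%), 17 and 11 at 500 ng (18.3% and 13.8%), and 20 and 15 at 1500 ng (17.1% and 27.1%). With the actin covariate 13 members passed in place of 24 after buffer and 21 in place of 32 after 150 ng. With quantile normalization the members' split at 500 ng was 16 and 14. At 24 h after saline 23 rose and 7 fell, against 14.0% and 16.4%, and after buffer 14 rose and 1 fell, against 5.03% and 3.53%. The rises at 24 h after buffer were led by Adamts4 (1.16), Timp1 (1.08) and Serpina3n (0.91), and the 1 fall was that of Adamtsl5 (-0.36). Without replicate 8 of the OVA buffer group these 15 calls became 7, and without replicate 4 they became 8. After TSLP at 24 h 23 rose and 12 fell at 150 ng (17.2% and 15.3%), 24 and 11 at 500 ng (16.8% and 16.1%), and 26 and 15 at 1500 ng (19.7% and 22.8%).

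Cell type markers moved in both directions in the same comparisons. Of 6 markers of monocytes and interstitial macrophages, C1qb, C1qc and Ms4a7 rose in 10 of 10 comparisons, C1qa in 7 and Ccr2 in 6, while Cx3cr1 fell in 6. Of the 6 measured alveolar macrophage markers of 7 listed, Chil3 and Mrc1 rose in 10, Siglecf and Car4 fell in 1 each, and Marco and Fabp4 passed in 0. The 5 measured dendritic cell markers rose, Itgax in 10, Flt3 in 8, Cd209a and H2-Aa in 6 each and Xcr1 in 4. The mean of the monocyte list ran from 9.89 to 11.07 over naive arrays and from 10.09 to 11.51 over OVA arrays. Of 4 eosinophil markers, Prg2 rose in 7, Epx in 6 and Ccr3 in 5, while Siglecf, which is on both lists, fell in 1. Of the goblet and club cell markers Clca1, Muc5ac and Muc5b rose in 10, Scgb3a1 in 3 and Scgb1a1 in 2. Of the smooth muscle markers Acta2 rose in 10, Myh11 in 4 and Cnn1 in 3, while Des fell in 1. Markers of other cells fell or went both ways. Of 4 endothelium markers Tek fell in 10, Cdh5 and Kdr in 8 each and Pecam1 in 3, with 1 rise. Of 5 T and NK cell markers Gzma and Ncr1 fell in 8 each, Cd4 rose in 7 and Cd3e in 2, and Cd8a rose in 1 and fell in 1. Of 6 fibroblast markers Dcn and Lum fell in 7 and Pdgfra in 6, while Col3a1 rose in 6 and Col1a1 in 4. The neutrophil marker Trem1 fell in 8, and S100a8 and S100a9 in 3 each. Of the alveolar type 2 markers Sftpb fell in 6 and Abca3 in 3, while Sftpc rose in 2. Clock genes moved as well. Nr1d1 fell in 9, Per1 and Nr1d2 in 3 each, Dbp in 2 and Per3 in 1. Npas2 rose in 4 and Arntl in 1, and Per2 passed in 0. The part of cell numbers and of the hour of day in the rises and falls of members was not tested. With the beta-actin signal described below as a covariate, Adam8, Ctsk and Ctss still rose in 10 comparisons, Timp1 in 9 and Serpina3n in 9, and Mmp9 fell in 6 and Serping1 in 8. Some counts dropped with it: Adam28 rose in 6 in place of 8, and Mmp8 fell in 4 in place of 6 and Adamts10 in 3 in place of 5. Others grew: Ctsc rose in 6 and Ctsl fell in 6, each in place of 4. Without the 6 keratin-bearing arrays Adam8, Ctsk and Ctss rose in 10, Timp1 in 8 and Serpina3n in 9, and Mmp9 fell in 7 and Serping1 in 9.

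The effect of TSLP was read against buffer within each sensitization and time. In naive lungs the number of members called after 1500 ng TSLP depended on the setting. At 6 h Adam10 rose by 0.20 and Timp2, Mmp2, Serpinb8 and Adamtsl1 fell by 0.17 to 0.37, so 1 member rose and 4 fell, against 5.53% and 9.82% of all genes. Of these 5, the Adamtsl1 fall alone remained with the actin covariate (-0.30, adjusted p = 0.0458). The count of 5 became 12 without replicate 6 of the buffer group, 10 without replicate 5 of the TSLP group and 1 without buffer replicate 2 or 5. It was 14 without the keratin-bearing arrays, 15 with array weights, 26 against saline in place of buffer and 0 with the compared groups fitted alone. Quantile normalization between arrays gave 2 rises and 3 falls, and over all genes 1001 rises and 840 falls in place of 746 and 1325. At 24 h no member passed, against 0.608% and 0.371% of all genes, by limma; 11 members had an unadjusted p under 0.05.

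In OVA lungs at 6 h the same dose was followed by 20 rises and 20 falls among the members, while 24.8% of all genes rose and 35.9% fell. Timp1 rose the most, by 0.83 (SE 0.29, adjusted p = 0.0102). Its buffer arrays ran from 9.84 over 10.61 to 11.97 and its TSLP arrays from 10.81 over 11.45 to 12.32, and they overlapped. Adam9, a widely expressed sheddase, rose by 0.66 (SE 0.09, adjusted p = 3.63e-11), with buffer arrays from 11.27 over 11.54 to 11.89 and TSLP arrays from 11.87 over 12.20 to 12.40. These groups overlapped narrowly, between 11.87 and 11.89. Of the cathepsins, 8 of 12 rose and 0 fell, led by Ctse with 0.65 (SE 0.19) and Ctsl with 0.56 (SE 0.07). Mmp19 rose by 0.65 (SE 0.13), Timp3 by 0.62 (SE 0.08) and Adamtsl3 by 0.58 (SE 0.11).

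The largest falls were those of Serpina7, thyroxine-binding globulin, at 1.06 (SE 0.18), of Mmp11 at 0.84 (SE 0.10), of Adamtsl2 at 0.78 (SE 0.14) and of Adam33, a gene linked to asthma risk, at 0.74 (SE 0.10). Mmp11, stromelysin 3, ran from 10.66 over 10.88 to 11.22 after buffer and from 9.86 over 10.02 to 10.25 after TSLP, without overlap. The interaction test gave a different effect of 1500 ng in OVA than in naive lungs at 6 h for 22 members, 14 upward and 8 downward, against 14.0% and 17.8% of all genes. Serpina7, Ctsl, Mmp11, Adam9 and Adam33 had the smallest p of these.

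A sign of RNA quality moved with this comparison. The probe sets at the 3′ and 5′ ends of beta-actin differed by 2.58 on average in OVA buffer arrays at 6 h and by 1.26 after 1500 ng TSLP, a change of -1.32 (SE 0.10). A larger gap means more signal near the 3′ end. It ran from 2.26 to 2.96 on the buffer arrays and from 1.06 to 1.49 on the TSLP arrays, without overlap. RNA quality and TSLP therefore cannot be told apart here, with or without a covariate. With this gap as a covariate 4 of the 40 calls were left: Adam9 rose by 0.41 (adjusted p = 0.0137), and Mmp11 (-0.46), Adam33 (-0.44) and Mmp24 (-0.28) fell. Timp1 then had a difference of 0.48 (adjusted p = 0.466) and Timp3 of 0.06 (adjusted p = 0.71). None of the 22 interaction calls at 6 h were left by limma with the covariate.

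**Figure D3:**
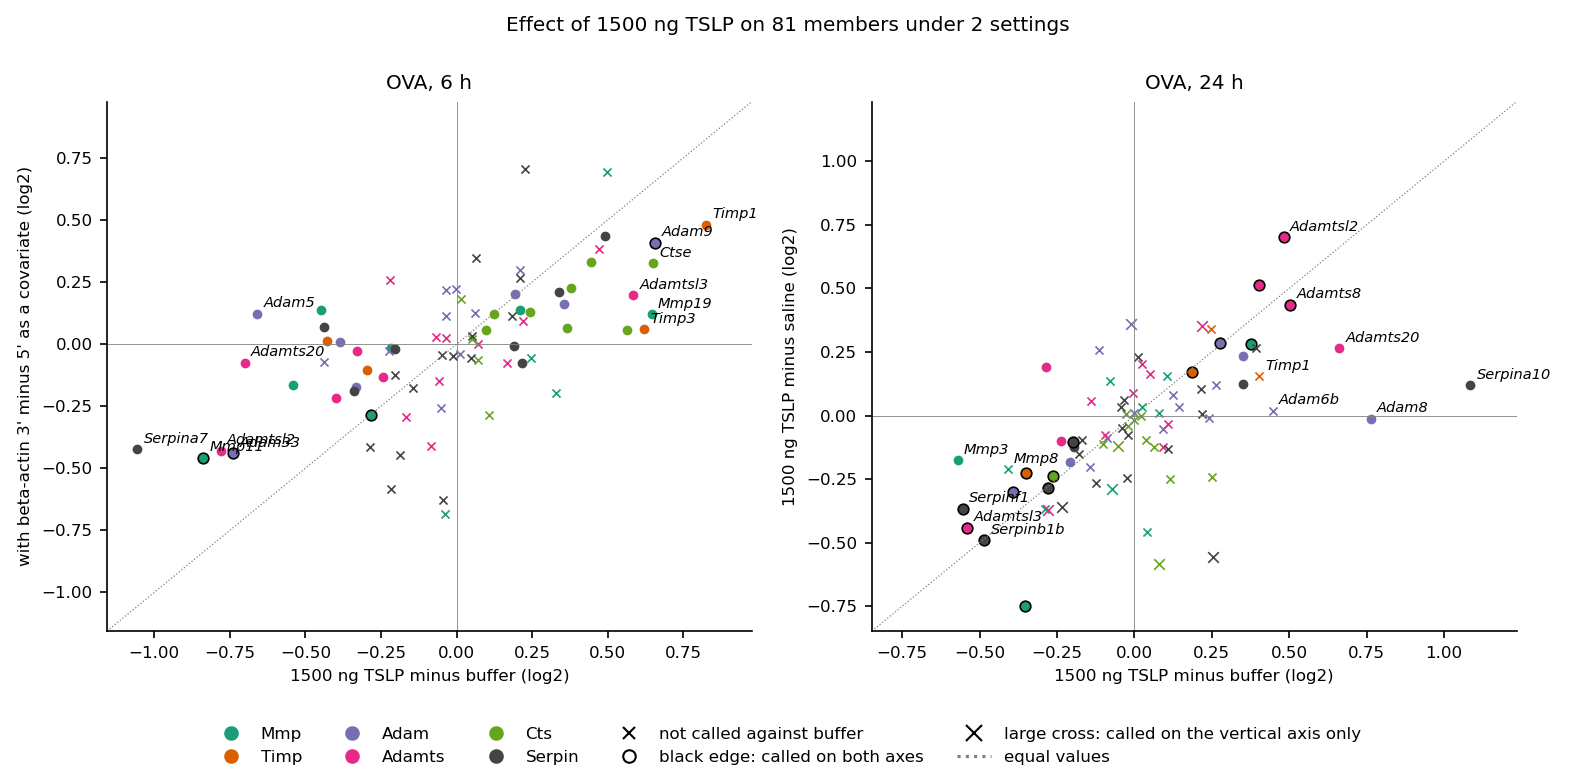
Each point is 1 of the 81 members, placed by its log2 difference between 1500 ng TSLP and buffer in OVA lungs (horizontal axis) and by the same difference under another setting (vertical axis), coloured by family. On the left, at 6 h with the actin covariate, Timp3 goes from 0.62 to 0.06 and Adam9 from 0.66 to 0.41. On the right, at 24 h against saline, Adam8 falls from 0.76 to -0.01 while Adamtsl2 goes from 0.48 to 0.70.

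At 24 h after 1500 ng TSLP in OVA lungs, 11 members rose and 14 fell, against 21.0% and 17.5% of all genes. Of the 16 Adamts and Adamts-like genes 4 rose and 3 fell, shares near those of all genes. Adamts8, an anti-angiogenic protease of lung, rose by 0.50 (SE 0.10, adjusted p = 1e-05), Adamtsl2 by 0.48 (SE 0.14), Adamts15 by 0.40 (SE 0.10) and Adamts20 by 0.66 (SE 0.20). Mmp14 rose by 0.38 (SE 0.10) and Adam15 by 0.28 (SE 0.05). The falls included Mmp3, stromelysin 1, at 0.57 (SE 0.21), Serpinf1 at 0.56 (SE 0.11), Adamtsl3 at 0.54 (SE 0.11) and Serpinb1b at 0.48 (SE 0.15). The Mmp3 fall went with a high buffer group. Its medians in OVA lungs at 24 h were 8.88 after saline, 9.22 after buffer and 8.64 after 1500 ng TSLP. Adam33 rose here by 0.35 (SE 0.11). In the interaction test at 24 h it was 1 of 3 members that passed, with Serpinf1 and Serping1, against 1.92% of all genes upward and 2.5% downward.

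The actin gap changed by 0.32 (SE 0.09) in this comparison. With it as a covariate 20 members passed. Fat and clock genes moved too: Adipoq fell by 3.20 (SE 0.74) and Car3 by 2.64 (SE 0.70), the fibroblast markers Dcn by 1.33 (SE 0.20) and Lum by 1.52 (SE 0.29), and the clock genes Arntl by 1.33 (SE 0.17) and Npas2 by 1.44 (SE 0.21), while Dbp rose by 1.41 (SE 0.20). Adipoq medians in OVA lungs at 24 h were 7.97 after saline, 10.20 after buffer and 6.36 after 1500 ng TSLP. Those of Dcn were 11.13, 11.56 and 10.25 in the same order. Of the whole lists, 2 of 2 measured fat markers fell, 4 of 6 fibroblast markers fell, and 5 of 8 clock genes rose and 2 fell. Of 6 alveolar macrophage and 4 endothelium markers 3 each fell. The part of these cells and of the hour of day in the member changes was not tested.

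The largest rises of that comparison, Serpina10 by 1.08 (SE 0.29) and Adam8 by 0.76 (SE 0.19), went with a low buffer group. Adam8 in OVA lungs at 24 h had medians of 11.30 after saline, 10.28 after buffer and 11.17, 11.12 and 11.19 after 150 ng, 500 ng and 1500 ng TSLP. Serpina10 had medians of 8.12, 6.58, 8.29, 8.36 and 8.06 in the same order. Against saline 1500 ng TSLP gave a difference of -0.01 for Adam8 (adjusted p = 0.975) and of 0.12 for Serpina10 (adjusted p = 0.812). Tested directly, buffer was below saline in OVA lungs at 24 h for Adam8 by 0.78 (SE 0.19, adjusted p = 0.032) and for Serpina11, a little-studied clade A serpin, by 0.81 (SE 0.17, adjusted p = 0.014), and above it for Adamts9 by 0.47 (SE 0.12). These were the 3 members that passed, 1 up and 2 down, against 0.245% and 0.637% of all genes. The Serpina11 medians were 6.90 after saline, 6.11 after buffer and 6.32 after 1500 ng TSLP.

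**Figure D4:**
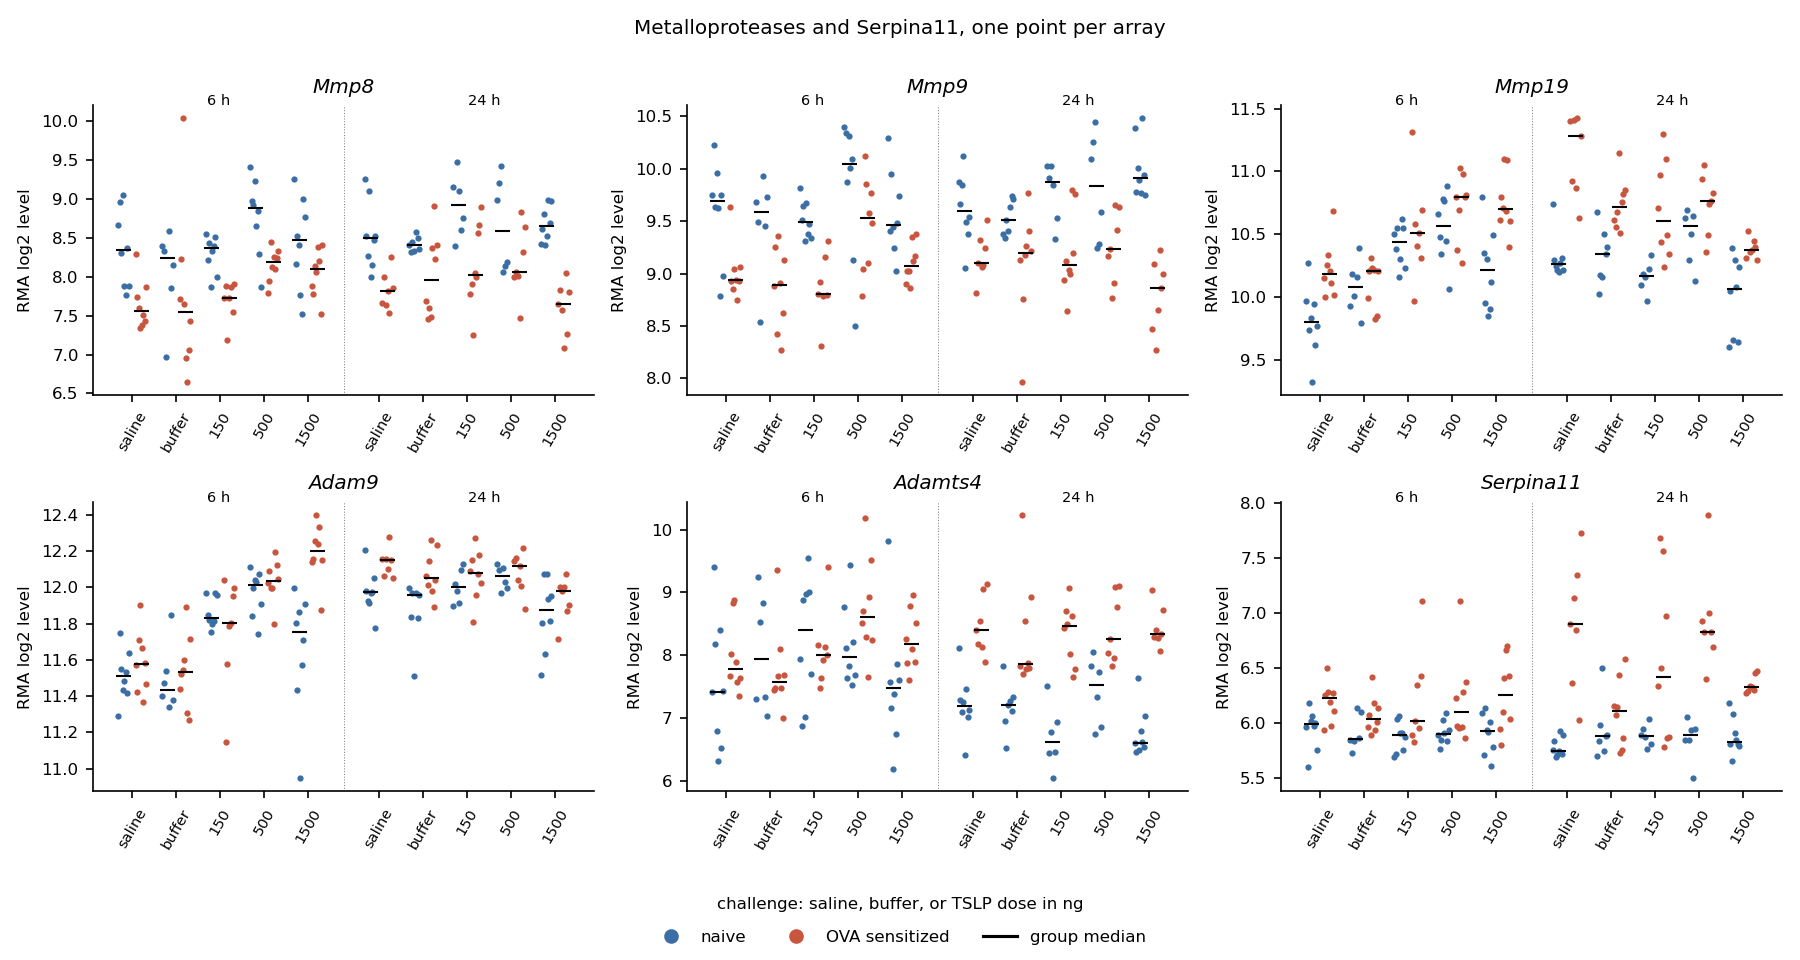
RMA log2 level of 6 members on every array (vertical axis) by challenge (horizontal axis) at 6 h and 24 h, naive in blue, OVA in red, with group medians as black lines. Mmp9 fell in OVA lungs in 7 of 10 pairs and Mmp8 in 6, the Adam9 medians of OVA lungs at 6 h go from 11.54 after buffer to 12.20 after 1500 ng TSLP, and Serpina11 at 24 h in OVA lungs has its lowest median, 6.11, after buffer.

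The lower doses share the buffer arrays with the 1500 ng group, so their values stand beside it and are not independent of it. At 6 h in OVA lungs 150 ng changed no member that limma called, against 0.133% and 0.0296% of all genes, with 12 members at an unadjusted p under 0.05. At 500 ng 17 rose and 12 fell, against 19.0% and 22.0%. With the actin covariate 6 of these 29 calls were left, the rises of Adam9, Mmp17, Serpina3n and Serpinb6b and the falls of Adamtsl2 and Adam33, and 4 without the keratin-bearing arrays as well. The largest changes at 500 ng were rises of Timp1 by 1.04 (SE 0.29) and Adamts4 by 0.97 (SE 0.34) and falls of Adamts20 by 0.85 (SE 0.19) and Adamtsl2 by 0.73 (SE 0.14). Of these 4 the Adamtsl2 fall alone passed with the covariate. Adam9 medians at 6 h in OVA lungs were 11.54 after buffer and 11.80, 12.04 and 12.20 after 150 ng, 500 ng and 1500 ng, and those in naive lungs 11.44, 11.83, 12.01 and 11.76. The actin gap in OVA lungs at 6 h averaged 2.58, 2.29, 1.79 and 1.26 in the same order, so dose and gap cannot be told apart there.

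In naive lungs at 6 h, 150 ng was followed by 6 rises and 7 falls, against 11.0% and 16.2% of all genes, and 500 ng by 12 rises and 16 falls, against 15.8% and 26.2%. With quantile normalization these were 9 and 5, and 13 and 12. The actin gap changed by -0.49 after 150 ng and by -0.70 after 500 ng, and with it as a covariate 5 members passed in place of 13 and 8 in place of 28. Without the keratin-bearing arrays 23 and 28 passed, and 10 and 16 with both. Mmp8 rose by 0.72 (SE 0.25) after 500 ng, where TSLP arrays ran from 7.87 over 8.89 to 9.41 and buffer arrays from 6.96 over 8.24 to 8.59. This rise did not pass with the covariate (adjusted p = 0.245) or without the keratin-bearing arrays (adjusted p = 0.232). At 24 h neither 150 ng nor 500 ng changed a member in naive lungs that limma called, with 6 and 7 members at an unadjusted p under 0.05. Of all genes 0.0889% rose and 0.126% fell after 150 ng, and 0.0% in each direction after 500 ng. In OVA lungs at 24 h, 150 ng was followed by 6 rises and 4 falls, against 7.2% and 3.26%, and 500 ng by 9 rises and 4 falls, against 7.43% and 4.35%. With quantile normalization 4 rose and 4 fell after 150 ng, and 9 and 4 after 500 ng. Serpina10, Adam8, Serpina11, Adam6b and Ctsw, the cathepsin of cytotoxic lymphocytes, were among the rises at both doses. The low buffer group described above is the control of each of these.

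Buffer was also set against saline in the other groups. At 6 h in naive lungs buffer differed from saline for 7 members, 2 up and 5 down, against 8.09% and 6.83% of all genes, with Adam5 (-0.57, SE 0.17) and Serpina1b (-0.47, SE 0.15) the furthest. With the actin covariate 2 members passed, and 3 without the keratin-bearing arrays. At 6 h in OVA lungs and at 24 h in naive lungs 0 members passed by limma, with 14 and 1 at an unadjusted p under 0.05. The shares of all genes there were 0.126% up and 0.23% down, and 0.00741% up and 0.0% down.

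Time after challenge was read in saline lungs, and the part of the hour of day in these differences was not tested. Between 6 h and 24 h after saline, 16 members rose and 25 fell in naive lungs, against 25.1% and 36.1% of all genes, and 19 rose and 24 fell in OVA lungs, against 25.3% and 35.7%. Adam10 and Adam17, the main sheddases of Notch and of TNF, rose in naive lungs by 0.41 (SE 0.07) and 0.40 (SE 0.07). In OVA lungs they rose by 0.44 (SE 0.07) and 0.39 (SE 0.08). These 4 rises also passed with the actin covariate, at 0.26 to 0.41. Mmp19 rose by 0.92 (SE 0.13) in OVA lungs, from a median of 10.18 to 11.29, and by 0.51 (SE 0.13) in naive lungs, from 9.80 to 10.26.

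Of the 12 cathepsins 8 rose and 0 fell between these times in OVA lungs, and 3 rose and 2 fell in naive lungs, a difference that was not tested. Of all genes 25.3% rose and 35.7% fell in OVA lungs, and 25.1% rose and 36.1% fell in naive lungs. Serpina10 fell by 1.02 (SE 0.28) in naive lungs, from a median of 7.27 to 6.18, Adam5 by 0.79 (SE 0.16), Mmp23 by 0.72 (SE 0.10) and Serpina1b, an alpha-1 antitrypsin of mouse, by 0.65 (SE 0.14). In OVA lungs Adam5 fell by 0.82 (SE 0.16), Serpina7 by 0.78 (SE 0.18), Timp4 by 0.69 (SE 0.17) and Adamtsl2 by 0.66 (SE 0.14). The actin gap changed by -1.04 (SE 0.20) in naive and by -1.18 (SE 0.10) in OVA lungs, and with it as a covariate 17 members passed in each. In OVA lungs it ran from 2.18 to 2.72 at 6 h and from 1.11 to 1.64 at 24 h. Time and gap cannot be told apart there. With the covariate Ctsl in naive lungs and Ctsz in OVA lungs changed sign.

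Several members had probe sets that did not move alike. Among 246 calls of members with more than 1 probe set, over the 28 comparisons of groups, every probe set had the sign of the one used in 159. Timp2 is the clearest case. In OVA lungs after 1500 ng TSLP at 6 h the probe set used fell by 0.30 (SE 0.06), while the mean of its 3 probe sets rose by 0.32, both past the threshold. Mmp14 fell by 0.54 (SE 0.10) in that comparison with the probe set used and differed by 0.05 with their mean. Ctsk, Ctss, Adam8, Timp1 and Serpina10 each have a single probe set.

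A separate set of serpins marked 6 arrays. These arrays had Krt4 and Krt13, keratins of squamous epithelium such as that of the gullet, more than 2 above the median of all arrays. They were 2 naive buffer arrays, 1 OVA buffer array, 1 naive 150 ng array and 1 OVA 1500 ng array at 6 h, and 1 naive buffer array at 24 h. Serpinb5, the epithelial serpin maspin, lay between 7.64 and 10.42 on them and between 4.92 and 6.00 on the other 143. Serpinb11 had a median of 10.38 on the 6 and of 5.04 on the others, Serpinb12 of 7.45 and 5.01, and Serpina9 of 7.52 and 6.05. The mean of the 5 squamous markers ran from 10.93 to 13.85 on the 6 arrays and from 5.48 to 6.25 on the others. Serpinb5 fell by 1.20 (SE 0.45, adjusted p = 0.0249) after 500 ng TSLP in naive lungs at 6 h, where 2 of the 6 buffer arrays are among them. Without these arrays the difference was -0.20 (SE 0.12, adjusted p = 0.149). Serpinb5, Serpinb11 and Serpinb12 were among the members that passed in none of the 10 comparisons of OVA with naive lungs; without these arrays Serpinb11 rose in 2.

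**Figure D5:**
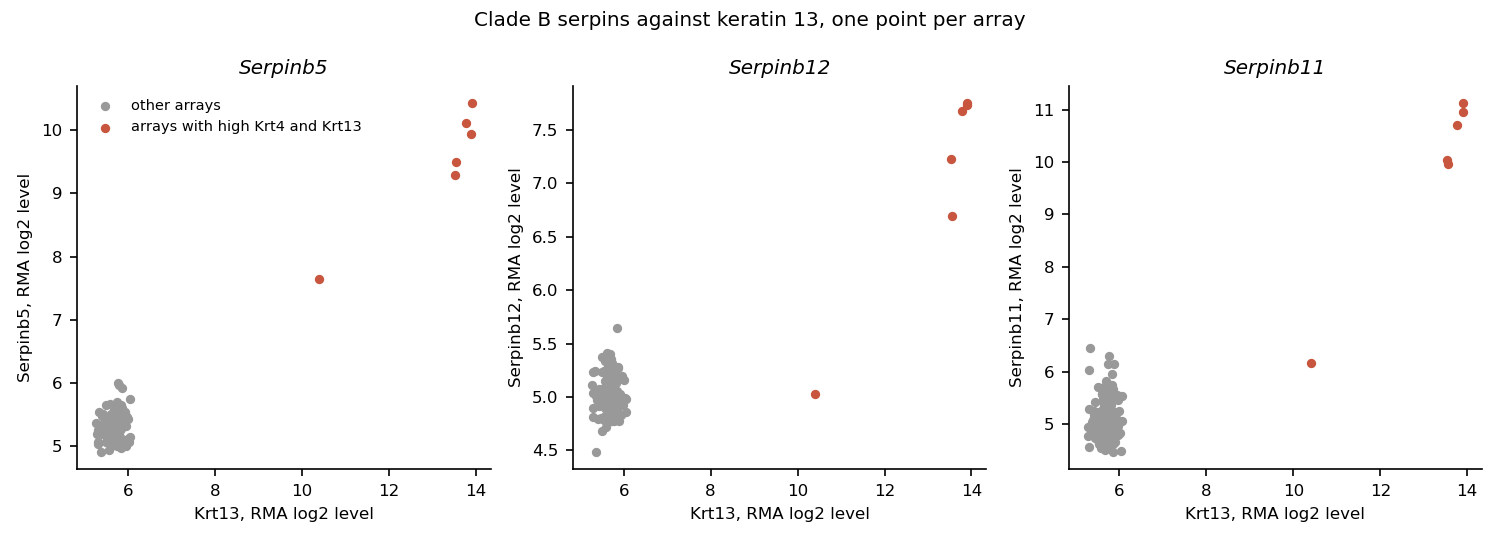
Level of Serpinb5, Serpinb12 and Serpinb11 (vertical axes) against that of keratin 13 (horizontal axis), both as RMA log2 values, with 1 point per array. The 6 arrays with high Krt4 and Krt13 are in red and the 143 others in another colour, and the red array with Krt13 at 10.40 has the lowest level of each serpin among the 6 and lies within the range of the others for Serpinb11 and Serpinb12.

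These clade B serpins are printed with 2 metalloproteases because they share the letters TGANTCA. This is a loose form, with any middle letter, of the motif of AP-1, a factor of keratinocytes and of induced metalloprotease genes. The middle letter is A or T in the 3 serpins and G or C in the 2 metalloproteases. A match describes letters and is not a bound site. TGANTCA was searched on both strands and was found in the window of 8 of the 54 members, which is 14.8%, against 8.97% of 27025 genes. The others were Serpinb8, Adam19 and Serpina1b. The match is in capitals, with the bases around it, from RefSeq windows of GRCm38.p6.
Serpinb5, chr1:106861005-106861071, plus strand: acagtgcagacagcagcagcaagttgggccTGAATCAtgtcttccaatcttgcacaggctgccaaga
Serpinb12, chr1:106934374-106934440, plus strand: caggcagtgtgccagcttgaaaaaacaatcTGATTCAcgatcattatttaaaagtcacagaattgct
Serpinb11, chr1:107362103-107362274, plus strand: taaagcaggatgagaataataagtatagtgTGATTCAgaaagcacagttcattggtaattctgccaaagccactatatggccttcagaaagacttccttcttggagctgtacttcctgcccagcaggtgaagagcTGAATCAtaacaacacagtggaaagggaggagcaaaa
Mmp3, chr9:7445746-7445812, plus strand: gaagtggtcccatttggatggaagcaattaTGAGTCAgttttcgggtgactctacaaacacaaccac
Mmp13, chr9:7272449-7272515, plus strand: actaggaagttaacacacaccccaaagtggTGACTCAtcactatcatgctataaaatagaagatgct
Counted from the gene start, the match begins at -140 in Serpinb5, at -45 in Serpinb12, at -181 and again at -76 in Serpinb11, at -46 in Mmp3 and at -35 in Mmp13. Mmp3 did not share the pattern of the 3 serpins on the 6 arrays, where its median was 9.35, against 8.97 on the others.

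Proteases and inhibitors outside these families were read from a list of 24 proteases, 19 of them measured, and of 19 inhibitors and receptors, 15 measured. Mcpt2, a mucosal mast cell chymase, rose in OVA lungs in 10 of 10 comparisons by 1.99 to 2.72, and Mcpt1 in 8. The mast cell tryptase Tpsb2 rose in 1. Of the basophil and mast cell markers Mcpt8 rose in 4 and Ms4a2 in 1, Gata2 fell in 5, and Cpa3, Cd200r3 and Fcer1a passed in 0. Tfpi2, a Kunitz inhibitor of plasmin, rose in 10, and Slpi, the leukocyte protease inhibitor of the airway, in 9. Reck, a membrane inhibitor of metalloproteases, fell in 9, Tfpi, the inhibitor of the tissue factor pathway, and the peptidase Dpp4 in 7 each, and Mme and Mcpt4 in 6 each. At 24 h after buffer 3 of 19 proteases and 4 of 15 inhibitors and receptors rose and 0 fell, where 5.03% of all genes rose and 3.53% fell. The transmembrane protease Tmprss2 was higher by 0.92 (SE 0.11) in OVA lungs at 6 h after buffer. After 1500 ng TSLP in OVA lungs it fell by 0.87 (SE 0.10) at 6 h and rose by 0.57 (SE 0.11) at 24 h. The membrane-bound inhibitor Spint1 fell by 0.48 (SE 0.07) and rose by 0.45 (SE 0.07) in the same comparisons. The actin gap changed by 0.44 between OVA and naive lungs at 6 h after buffer. After 1500 ng TSLP in OVA lungs the gap changed by -1.32 at 6 h and by 0.32 at 24 h. Tmprss2 and Spint1 were not read with the actin covariate.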

How the data were processed

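Lung RNA was hybridised to Affymetrix 3′ expression arrays. The deposited values are log2 levels of 26166 probe sets, made by the authors with RMA per the submitters' processing notes. Per the labels' protocols, mirVana gave total RNA, and a 3'IVT kit labelled it. Array platform annotation gave 22892 probe sets a single gene, 260 several and 3014 none, and the brightest probe set stood for each of 13494 genes.

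A mean per group was fitted over all arrays in limma 3.58.1 (R 4.3.3) with eBayes, and 30 comparisons were tested at a Benjamini-Hochberg adjusted p of 0.05. The median residual SD was 0.16 log2, and the number of arrays, 6 to 8 a group, limits the precision. The script was tested on simulated data. Samples were grouped by the labels. Same animal numbers in different groups did not deviate together (median correlation 0.008 over 1314 pairs, against 0.005 over 9226 pairs of different numbers), so no block was used.

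The members, marker lists and comparisons were chosen with earlier results of these data known. Named members were, per comparison with 1500 ng TSLP, OVA in buffer, or time, the 6 largest rises and 4 largest falls; up to 5 by p for interactions; up to 4 by size for lower doses and buffer; a list named whatever its values; the extremes of level and range; and all where 5 or fewer passed. Members described across the 10 comparisons of OVA with naive lungs, and other members named for a count, were chosen after their values were seen. The comparisons of OVA with naive lungs outside buffer were added after the data were seen. Alternatives were another probe set rule, normalization, filter, covariate, array weights, control, replicate block and sets of arrays. Motifs were searched in RefSeq promoters of GRCm38.p6.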

Additional observations from a re-analysis of the deposited data

Results flagged for a closer look

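Single arrays stood far from the rest of their group in 21 of 240 Dixon tests over 12 members; chance gives about 1 in 20. Adam8 was low in replicate 3 of the OVA buffer group at 6 h (9.81) and in replicate 1 of OVA with 1500 ng TSLP at 24 h (10.20). Ctsk was high in replicate 6 of naive 150 ng at 6 h (10.08) and replicate 8 of naive 150 ng at 24 h (9.70), and low in replicate 2 of OVA 150 ng at 6 h (9.63). Timp1 was high in replicate 5 of naive 500 ng at 6 h (11.71) and in replicate 1 of naive 1500 ng at 6 h (11.75). Replicate 5 of OVA 500 ng at 6 h was low for Timp1 (10.60) and for Serpina3n (11.65).

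Among the metalloproteases, Mmp19 was high in replicate 1 of naive saline at 24 h (10.74), Mmp9 was low in replicate 4 of naive buffer at 6 h (8.54), 1 of the 6 arrays with high Krt4 and Krt13, and high in replicate 1 of OVA saline at 6 h (9.64). Replicate 3 of the OVA buffer group at 6 h was high for Mmp8 (10.04) and Adamts4 (9.36). Adamts4 was also high in replicate 1 of naive 1500 ng at 6 h (9.81), the array with the high Timp1, and in replicate 7 of OVA 150 ng at 6 h (9.41). Adam9 was low in replicate 5 of naive buffer at 24 h (11.51), which was high for Serpina11 (6.50). Serpina11 was high in replicate 4 of OVA 500 ng at 6 h (7.11) and of OVA 500 ng at 24 h (7.89), and low in replicate 7 of naive 500 ng at 24 h (5.50).

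The effect of 1500 ng TSLP differed between OVA and naive lungs by limma's interaction test. At 6 h the difference, OVA minus naive, was -1.16 for Serpina7 (adjusted p = 0.000389), 0.41 for Ctsl (0.000712), -0.60 for Mmp11 (0.001), 0.50 for Adam9 (0.00122) and -0.61 for Adam33 (0.00132). At 24 h it was -0.64 for Serpinf1 (0.0117), 0.48 for Adam33 (0.0454) and -0.18 for Serping1 (0.0468). None of the interaction calls at 6 h were left by limma with the actin covariate. Those at 24 h were fewer with the mean of all probe sets or with quantile normalization.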

How the results depend on the processing

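Numbers of members called were recomputed under each alternative, and those that moved by over 1.5 times follow. With the mean of all probe sets, 1500 ng TSLP in naive lungs at 6 h gave 1 in place of 5, its interaction at 24 h 1 in place of 3, and 150 ng in naive lungs at 6 h 7 in place of 13. Quantile normalization gave 1 for the interaction at 24 h. With the beta-actin covariate the counts were 1 of 5 for 1500 ng naive at 6 h, 4 of 40 for 1500 ng OVA at 6 h, 0 of 22 for the interaction at 6 h, 13 of 24 for OVA against naive in buffer at 6 h, and 17 in place of 41 (naive) and 43 (OVA) for time. For the lower doses at 6 h they were 5 for 150 ng naive, 8 in place of 28 for 500 ng naive and 6 in place of 29 for 500 ng OVA. They were 2 in place of 7 for buffer against saline naive at 6 h and 21 in place of 32 for OVA against naive after 150 ng at 6 h.

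Without the 6 arrays of high Krt4 and Krt13 the counts were 14 for 1500 ng naive at 6 h, 23 for 150 ng naive at 6 h, 11 for the interaction at 6 h and 3 for buffer against saline naive at 6 h. With the covariate and without these arrays they were 7 for 1500 ng OVA at 6 h, 20 and 19 for time, 0 for the interaction at 6 h, 16 and 4 for 500 ng naive and OVA at 6 h, 1 and 4 for buffer against saline naive and OVA at 6 h, and 21 for OVA against naive after 150 ng at 6 h. This last alternative was chosen after seeing the data. Against saline, 1500 ng naive gave 26 at 6 h and 1 in place of 0 at 24 h, and OVA against naive at 24 h gave 30 in place of 15. Array weights gave 15 for 1500 ng naive at 6 h. The compared groups alone gave 0 there, and 10 and 8 for OVA against naive in buffer at 6 h and 24 h. Leaving out the dimmest 40% of genes changed no count by over 1.5 times.

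Without 1 replicate at a time, 1500 ng TSLP gave 1 to 12 (naive, 6 h), 35 to 44 (OVA, 6 h), 0 to 1 (naive, 24 h) and 22 to 30 members (OVA, 24 h), OVA against naive in buffer 19 to 26 at 6 h and 7 to 18 at 24 h, and time 38 to 42 (naive) and 41 to 47 (OVA). Of the named members' results, called or not, 5183 stayed as they were, 122 lost a call, 64 gained one and 0 reversed. Under the other alternatives 4157 stayed as they were, 279 lost a call, 114 gained one and 48 reversed.

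With the animal number as a replicate block the count was 5 for 1500 ng naive and 40 for OVA at 6 h, and 0 and 25 at 24 h. It was 24 and 14 for OVA against naive in buffer, 41 and 44 for time, and 22 and 2 for the interactions. The block moved no count by over 1.5 times; the interaction at 24 h had 3 members without it.

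Reversed with the mean of all probe sets were Timp2 after 1500 ng (naive 6 h 0.15, OVA 6 h 0.32, OVA 24 h -0.10), in OVA against naive buffer at 6 h (-0.20) and over time (0.27 in both). So were Mmp14 (OVA 6 h 0.052, time 0.26 naive and 0.36 OVA), Timp4 (OVA 6 h 0.032), Adam10 (OVA against naive, buffer 6 h, -0.014), Ctsb and Serpinf1 over time in naive lungs (0.24 and 0.29), and Ctsb in OVA against naive (-0.09 after 150 ng at 6 h, -0.016 after 1500 ng at 24 h). With the covariate 1500 ng OVA at 6 h reversed for Serpinb1a (0.071), Serpinb9 (-0.009) and Timp4 (0.014). Time reversed for Ctsl (-0.12) and Timp3 (-0.10) in naive and for Ctsz (-0.008), Mmp14 (0.009) and Timp3 (-0.16) in OVA lungs.

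With the covariate and without the 6 arrays, 1500 ng OVA at 6 h reversed for Ctsz (-0.012), Mmp2 (0.00), Serpinb1a (0.10), Serpinb9 (-0.061) and Timp4 (0.079). Time reversed for Ctsl (-0.11), Ctsz (-0.19) and Timp3 (-0.092) in naive lungs, and for Ctsz (-0.024), Mmp14 (0.001), Serpinb1a (0.044) and Timp3 (-0.16) in OVA lungs. OVA against naive after 1500 ng at 6 h reversed for Serpinb6a (-0.10). With the other control, 1500 ng naive at 6 h reversed for Ctsc (0.22), Ctss (-0.13) and Serpina1b (-0.38), and 1500 ng OVA at 24 h for Adam8 (-0.012), Adamts9 (0.19) and Ctse (-0.58). OVA against naive reversed for Adamts5 (0.10) and Ctsc (0.25) at 6 h and Ctsw (0.39) at 24 h, and time for Serpinc1 (0.32) in naive and Adamts5 (0.42) and Serping1 (0.15) in OVA lungs. Apart from the probe sets, which differ by construction, the cause was not tested. Signal over background limits dim members such as Serpinb12, Serpinb11 and Mmp13. It also limits Adam6b, Serpina11 and Adam5, with mean levels of 6.07, 6.13 and 6.36.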

Other observations

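Adam6b rose in OVA lungs in 5 of 10 comparisons, and 19 of its 20 nearest RefSeq genes on chromosome 12 are immunoglobulin heavy chain genes named Igh. Ighm, the constant region of IgM, was higher in OVA lungs by 3.67 at 6 h and by 4.78 at 24 h after saline. The part of B cell number in the Adam6b values was not tested.

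Replicate 3 of the OVA buffer group at 6 h had Mmp3 at 11.32, the highest level of that gene on any array, where the median of its group was 8.59. The same array had the highest Mmp8 and Adamts4 of its group. It was singled out after its values were seen.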
